A study of Caenorhabditis elegans with 2 samples.

Results

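ZTF-11 is a zinc-finger protein of the Myt1 family, known for its part in neurogenesis. Its tagged form was profiled by ChIP-seq in whole Caenorhabditis elegans larvae, and the regions described here are those at genes for small structured RNAs. A region was included when its summit, the position of highest signal in the region, lay within 300 bp of a gene annotated as tRNA, snoRNA or snRNA, with the spliced-leader genes (sls-) left out. Of the 30000 regions in the pooled list, 322 met this rule. By the nearest gene, 165 were at tRNA genes, 129 at snoRNA genes and 28 at snRNA genes. The rule used position only, so signal, rank and replicate were not part of the choice.

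The larvae were of the strain OP236, which carries the mutation unc-119(ed3) on chromosome III and the transgene wgIs236, from which ZTF-11 is stably expressed with GFP and FLAG at its C-terminus. Per the labels, the animals were first-stage (L1) larvae of both sexes, and the 2 biological replicates formed 1 group. All samples carried the tagged protein, and the sources used here do not give the strain of the control library or the promoter that drives the transgene. Whole organisms were used, so signal from a few cells and weak signal from many cells cannot be told apart. Each replicate had a list of 30000 regions and so had the pooled reads, all built as input for a reproducibility ranking (IDR). These lists therefore hold peaks and background alike. The thresholded list, called the consensus here, held 88 peaks. Signal is the authors' value for each region, and its scale between lists was not stated. The median over all nuclear regions was 16.1 with reads pooled, 9.89 in replicate 1 and 9.18 in replicate 2. The lists hold no read counts, so the depth was unknown.

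Transfer RNAs carry amino acids to the ribosome, and their genes are transcribed by RNA polymerase III from promoter elements inside the gene, the A box and the B box. Small nucleolar RNAs guide the chemical modification of ribosomal RNA, and in nematodes many of them lie in introns of protein-coding genes. Small nuclear RNAs form the core of the spliceosome, and most of their genes use promoter elements upstream of the start that are read by the complex SNAPc. Many tRNA and snRNA genes exist in identical or nearly identical copies, so short reads from them can match several places in a genome.

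Sequences of a few of the genes and windows with regions of high signal are shown first, from the RefSeq genome of the build WBcel235 (ce11), with positions counted from 1. Among the tRNA genes, 3 members show the B box, for which the letters GTTCNANNC are in capitals. T07H6.t2 reads alanine tRNA (chrX:6292278-6292349, minus strand), F22B7.t3 reads phenylalanine tRNA (chrIII:8653055-8653127, plus strand) and W02H3.t1 reads leucine tRNA (chrX:11095673-11095754, plus strand). All 3 had a region among the 1000 of highest pooled signal, with the summit outside the gene by 108 bp, 62 bp and 19 bp, and other tRNA genes had regions of higher signal. Of all 612 nuclear tRNA genes, 587 (95.9%) hold these letters on the sense strand, against 14 of 346 snoRNA genes and 1 of 99 snRNA genes.
T07H6.t2: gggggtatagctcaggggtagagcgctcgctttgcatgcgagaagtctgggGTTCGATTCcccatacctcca
F22B7.t3: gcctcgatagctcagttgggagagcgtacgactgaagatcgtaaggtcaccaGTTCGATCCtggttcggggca
W02H3.t1: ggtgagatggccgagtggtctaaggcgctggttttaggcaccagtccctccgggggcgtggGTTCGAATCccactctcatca

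The 3 snoRNA genes of highest signal were Y53F4B.47 (chrII:15025814-15025893, minus strand), C04G6.12 (chrII:5105157-5105231, minus strand) and ZK994.7 (chrV:8500579-8500645, plus strand). Capitals mark CTGA in the last 15 bases, the letters of the D box that defines snoRNAs guiding methylation. CTGA was found there in 77 of 346 snoRNA genes (22.3%).
Y53F4B.47: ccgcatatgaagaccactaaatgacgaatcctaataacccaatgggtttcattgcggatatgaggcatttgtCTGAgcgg
C04G6.12: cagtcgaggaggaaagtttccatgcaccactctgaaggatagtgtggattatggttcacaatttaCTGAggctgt
ZK994.7: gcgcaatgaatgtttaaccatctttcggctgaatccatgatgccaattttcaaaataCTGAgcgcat

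The snRNA genes of highest signal were sup-6 and sup-39, which encode U1, the snRNA that pairs with the 5′ splice site, and are known as suppressors of splice-site mutations. The first 60 bases of each gene are shown (chrII:12944908-12944967 and chrII:6968499-6968558, both minus strand), with the splice-site pairing letters ACTTACCTG in capitals. These letters were found in 12 of the 13 genes grouped as U1 and in 0 of the other 1044 small RNA genes. Over their whole length sup-6 and sup-39 were 97.6% identical.
sup-6: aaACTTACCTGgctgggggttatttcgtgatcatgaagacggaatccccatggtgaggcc
sup-39: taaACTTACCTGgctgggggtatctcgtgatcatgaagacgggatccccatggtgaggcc

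The windows under 3 of the consensus summits are shown because they lie beside the small RNA gene rather than inside it. They are the stretch between the divergent tRNA genes M02F4.t2 and M02F4.t1 (chrX:3036048-3036163), and 100 bases around the summits near Y53F4B.47 (chrII:15025691-15025790) and C18A11.t2 (chrX:8036348-8036447), all on the plus strand. Capitals mark AAGTT, the word known for Myt1 family factors, or AACTT, the same word on the other strand. The first and the second window hold 1 match each, and the third holds 0. The first window is not centred on its summit, and its match lies more than 50 bp from that summit. Within 50 bp of the summit, only the region near Y53F4B.47 held the word among these 3.
M02F4.t2 to M02F4.t1: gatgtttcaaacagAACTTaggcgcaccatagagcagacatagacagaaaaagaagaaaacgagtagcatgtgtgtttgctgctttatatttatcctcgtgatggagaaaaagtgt
Near Y53F4B.47: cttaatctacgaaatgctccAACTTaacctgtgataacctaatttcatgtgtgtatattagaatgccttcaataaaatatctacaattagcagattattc
Near C18A11.t2: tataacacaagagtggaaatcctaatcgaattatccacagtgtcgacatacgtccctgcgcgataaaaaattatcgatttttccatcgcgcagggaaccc

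Regions at small RNA genes were more often of very high signal than the list as a whole. Of the 322 regions, 47 were among the 1000 of highest pooled signal, or 14.6%, where the background over all regions was 3.33%. The share was 14.5% at tRNA genes (24 of 165), 15.5% at snoRNA genes (20 of 129) and 10.7% at snRNA genes (3 of 28). The consensus held 4 of the 322 regions, or 1.24%, against a background of 0.293%. Among the 5000 highest regions there were 102 (31.7%, background 16.7%), and 196 were above the median of the list (60.9%, background 50%).

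Most of the regions had ordinary signal. The median pooled signal was 17.5 with quartiles of 14.4 and 22.3, and over all 30000 regions it was 16.1 with quartiles of 13.9 and 19.2. Medians by biotype were 17.6 at tRNA genes, 17.4 at snoRNA genes and 18.4 at snRNA genes, so the 3 classes differed from each other by less than the quartile range of any one of them. The difference from the whole list lay mostly at the top of the ranking. The first 1000 ranks of the pooled list held 47 of the regions, and the second 1000 held 13.

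**Figure D1:**
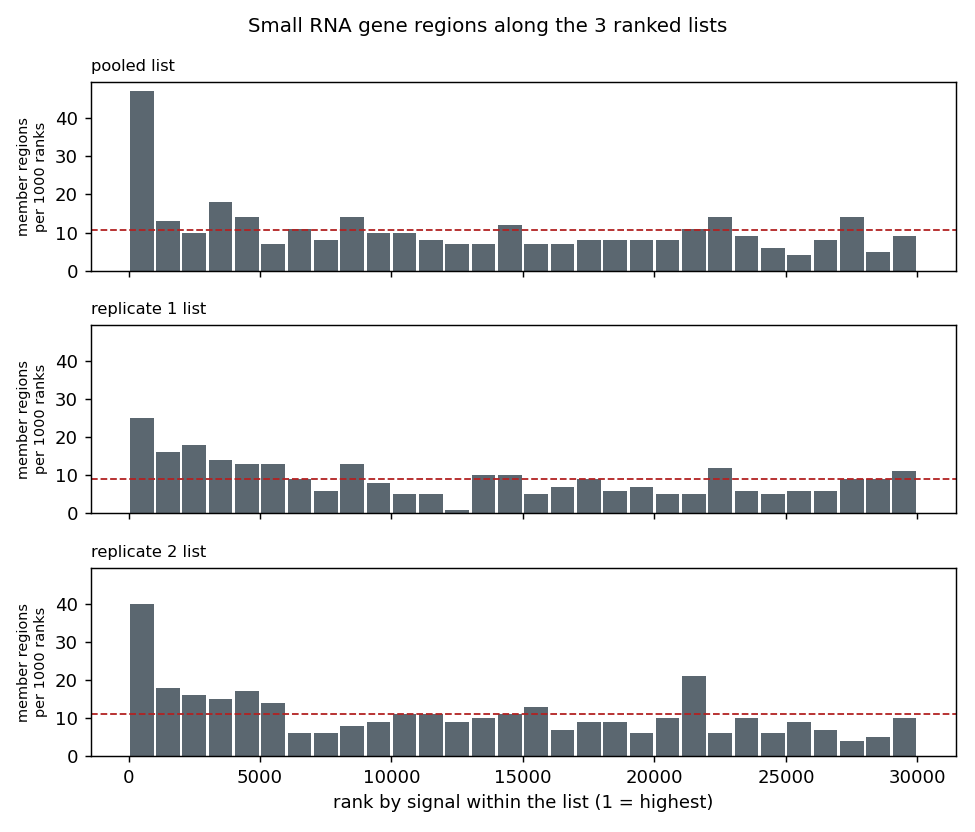
Number of regions at small RNA genes (y axis) in each block of 1000 ranks by signal (x axis, rank 1 is the highest) for the pooled, replicate 1 and replicate 2 lists, with the mean per block as a dashed line. The first block is the highest bar in each list, with 47, 25 and 40 regions.

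Regions at small RNA genes were also compared with regions at promoters of protein-coding genes. Of the regions at small RNA genes, 70 were no more than 500 bp from the nearest protein-coding start and 252 were farther away. The share among the 1000 highest was 14.3% (10 regions) near a start and 14.7% (37 regions) away from one. Among the other regions of the list it was 4.61% near a start and 2.73% away from one. The median pooled signal of the 252 regions away from starts was 17.5.

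Summits were denser in and next to the genes than in the genome at large. Positions within 300 bp of the 1057 genes make up 0.690% of the nuclear genome and held 1.07% of the pooled summits, a ratio of 1.56. The ratio was 1.46 for tRNA genes, 1.76 for snoRNA genes and 1.35 for snRNA genes. Inside the genes there were 67.1 summits per 100 kb and from 1 to 100 bp outside them 58.1, against 29.9 over the genome. From 200 to 300 bp the density was 28.5, and from 300 to 1000 bp it was 31.1, both close to the genome value.

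The distance pattern was steeper for the 1000 highest regions. Their density was 11.3 per 100 kb inside the genes and 11.6 from 1 to 100 bp, against 0.997 over the genome, ratios of 11.4 and 11.6. The ratio was 2.59 from 100 to 200 bp, 3.23 from 200 to 300 bp and 1.49 from 300 to 1000 bp. For tRNA genes the ratio was 13.1 inside and 1.85 from 100 to 200 bp. For snoRNA genes it was 10.6 inside and 4.54 from 100 to 200 bp. From 200 to 300 bp the ratio was 6.17 for snoRNA and 1.94 for tRNA genes, and from 300 to 1000 bp 3.12 and 0.763. In these counts high summits thus stayed denser than in the genome up to 1000 bp from snoRNA genes, without a steady fall. The values from 100 to 200 bp rest on 3 snoRNA and 2 tRNA summits. Those from 200 to 300 bp rest on 4 and 2, and those from 300 to 1000 bp on 14 and 5.

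**Figure D2:**
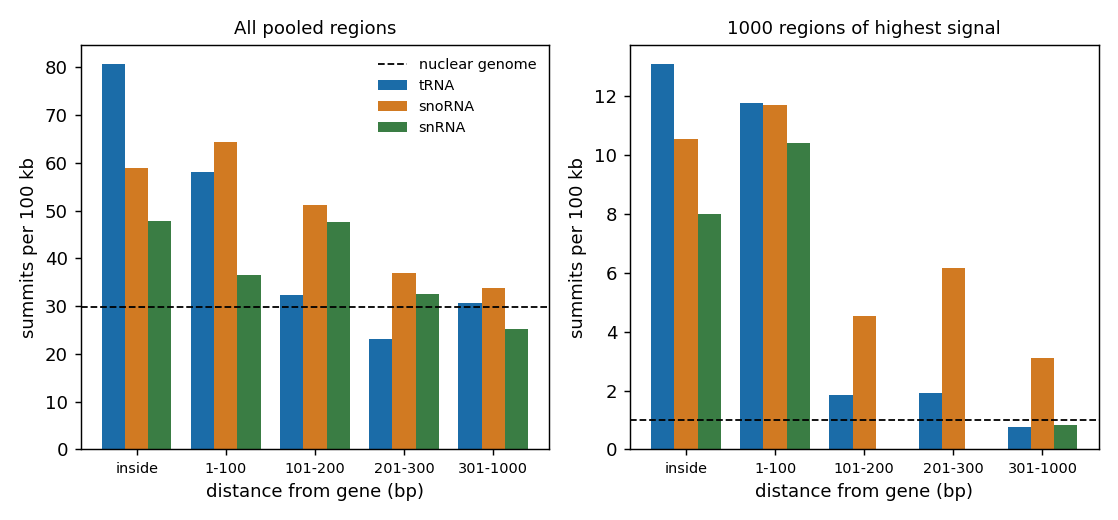
Summits per 100 kb (y axis) by distance from the nearest edge of tRNA, snoRNA and snRNA genes (x axis, bp), for all pooled regions on the left and the 1000 of highest signal on the right, with the genome density as a dashed line. Inside tRNA genes the density was 80.7 for all regions and 13.1 for the highest 1000, and from 300 to 1000 bp it was 30.6 and 0.761.

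Signal also varied with distance. The median pooled signal was 19.0 for the 71 summits inside a gene, 18.1 for 120 summits at 1 to 100 bp, 16.2 for 78 at over 100 and up to 200 bp, and 15.8 for 53 at over 200 bp. Upstream of the genes 22 of 124 summits were among the 1000 highest (17.7%), and downstream 13 of 127 were (10.2%). At tRNA genes alone this was 13 of 67 upstream, 6 of 37 inside and 5 of 61 downstream. The 2 summits in the last 10 bp inside the limit had signals of 18.3 and 31.6, the higher being that at the snoRNA gene F52G3.6, and the 4 summits in the first 10 bp outside it had signals from 14.2 to 33.5.

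By gene, 329 of the 1057 small RNA genes (31.1%) had a summit within 300 bp and 51 (4.82%) had one of the 1000 highest. The counts were 179 of 612 tRNA genes (29.2%), 123 of 346 snoRNA genes (35.5%) and 27 of 99 snRNA genes (27.3%). The snRNA genes include mir-1831, an entry of 22 bases inside sup-39. The regions at sup-39 therefore count for both entries, also among the genes with one of the 1000 highest. Of 19973 protein-coding genes, 34.2% had a pooled summit within 500 bp of a start, and 2.15% had one of the 1000 highest. The distances differ between these counts, so the shares stand side by side only.

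The tRNA genes had the strongest single region. It lay between M02F4.t2 and M02F4.t1, a glutamic acid and a glycine tRNA gene on X that point away from each other, with its summit 28 bp upstream of M02F4.t1 (chrX:3035961-3036310). Its signal was 53.5 in the pooled list (rank 32), 22.7 in replicate 1 (rank 163) and 28.6 in replicate 2 (rank 39). It was a consensus peak, and both replicates placed it far above their medians. M02F4.t1 is 1 of 29 identical gene copies, and 32.8% of the 31-base words of the region occur more than once in the nuclear genome.

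The other consensus peak at a tRNA gene lay near C18A11.t2, an arginine tRNA gene on X (chrX:8036223-8036572). Its summit was 287 bp downstream of the gene, close to the 300 bp limit, and 4915 bp from the nearest protein-coding start. Its signal was 44.5 in the pooled list (rank 64), 31.4 in replicate 2 (rank 29) and 11.5 in replicate 1 (rank 9104). The replicates therefore placed it very differently. No 31-base word of this region was repeated.

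The next regions by signal were at F14B6.t1, a methionine tRNA gene, with its summit inside the gene (pooled 40.1, replicate 1 18.4, replicate 2 18.9), and at rte-1, a glutamic acid tRNA gene on X (pooled 38.96, replicate 1 31.7 at rank 25, no matched region in replicate 2). F46G11.t2, a proline tRNA gene, had a pooled signal of 38.6, with 25.7 in replicate 1 and 18.8 in replicate 2. F47G6.t1, an arginine tRNA gene in an intron, had 38.5, 18.4 and 20.1. Of these 4 regions, the 3 other than rte-1 were among the 1000 highest of both replicates. R11.t1 (tyrosine) had a pooled signal of 37.0 and ranked 5364 in replicate 1 and 56 in replicate 2, C04E7.t1 (leucine) had 35.5 with ranks 1098 and 981, W02H3.t1 (leucine) had 34.8 with ranks 4204 and 116, and W09D6.t1 (proline) had 34.4 with ranks 2427 and 121. For 3 of these 4 the rank was far better in replicate 2.

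Signal was spread over most amino acids. Of 21 amino acid classes of tRNA gene, selenocysteine included, 20 had at least 1 region and 14 had at least 1 among the 1000 highest. Proline genes had 11 regions with a median of 23.0, of which 3 were among the 1000 highest. Arginine genes had 12 with a median of 21.0 and 3 among the highest, leucine genes 14 with a median of 17.8 and 3, and isoleucine genes 11 with a median of 16.9 and 3. Cysteine, glutamine, histidine, lysine, tryptophan and valine genes had regions but 0 among the 1000 highest. Among these, valine genes had 8 regions with a median of 14.5 and lysine genes 13 with a median of 16.4. The ranges of proline and valine genes overlapped: proline regions ran from 14.6 to 38.6 and valine regions from 12.7 to 26.7.

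**Figure D3:**
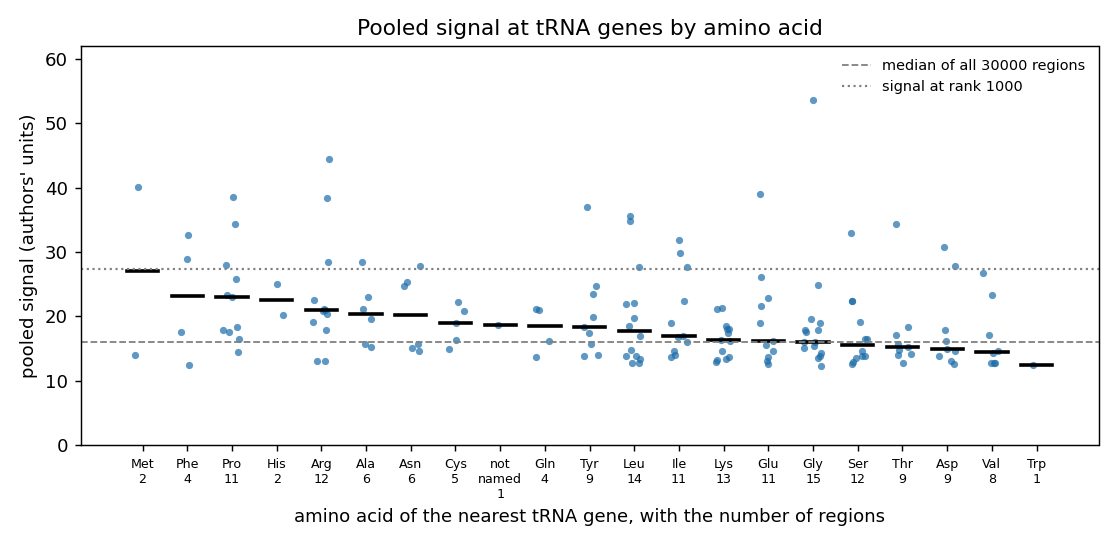
Pooled signal (y axis, authors' units) of the 165 regions at tRNA genes by the amino acid of the nearest gene (x axis, with the number of regions), ordered by median. Points are regions, bars are medians, and the dashed and dotted lines are the median of all regions (16.1) and the signal at rank 1000 (27.4). All classes with 3 or more regions overlap, and the highest point is the glycine gene M02F4.t1 at 53.5.

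Identical copies mark a division among the tRNA genes. Of 469 genes with at least 1 identical copy, 27 (5.76%) had one of the 1000 highest summits nearby, and of 143 genes with a sequence of their own 0 had. Any pooled summit was near 143 (30.5%) of the first and 36 (25.2%) of the second. Counted by region, 125 of the 165 tRNA regions held at least 1 repeated 31-base word, and 22 of them (17.6%) were among the 1000 highest, against 2 of 40 (5%) without. Repeated words went with position too. At tRNA genes, 36 of 37 regions with the summit inside the gene held one, against 47 of 67 upstream and 42 of 61 downstream. Over all 3 biotypes it was 43 of 71 inside and 9 of 53 at over 200 bp. The split of regions by repeated words was thus partly a split by distance, and these were not separated. The sources used here do not say how reads that match several places were handled, and the part of repeated sequence in these values was not tested.

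The same counts were made over the rest of the list. Among other regions 1.82% of those with repeated words and 3.48% of those without were in the 1000 highest. Among all regions at small RNA genes, the 160 without any repeated word had 20 in the 1000 highest (12.5%) and a median of 17.1, and the 162 with repeated words had 27 (16.7%) and a median of 18.02. Of these 20 high regions without repeated words, 18 were at snoRNA genes, where 109 of 129 regions held none.

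**Figure D4:**
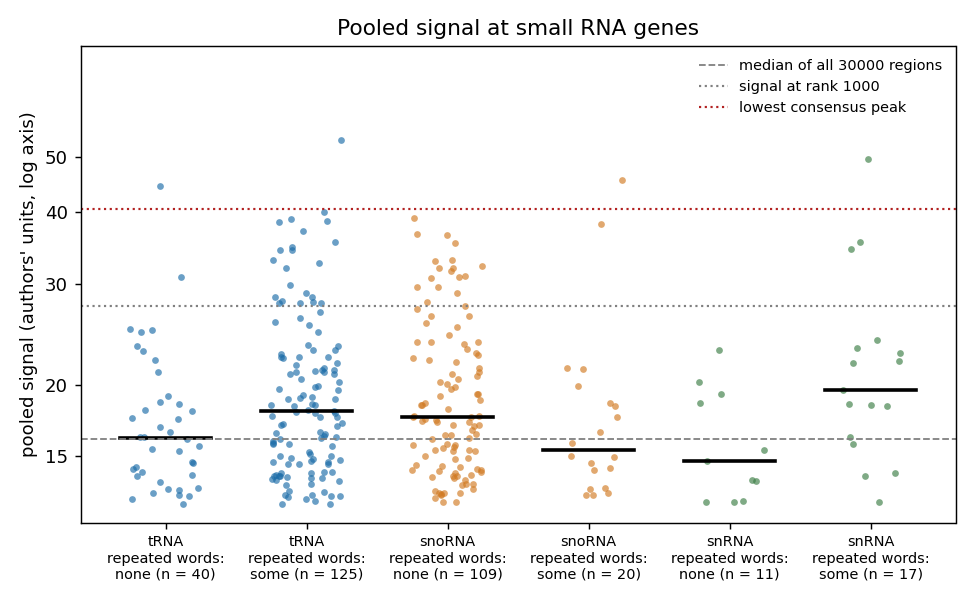
Pooled signal (y axis, authors' units, log scale) of each region by biotype and by whether the region holds a repeated 31-base word. Points are regions, bars are medians, and lines mark the median of all regions (16.1), rank 1000 (27.4) and the lowest consensus peak (40.5). The upper tRNA points are mostly regions with repeated words, and the upper snoRNA points mostly regions without.

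The X chromosome holds 276 of the 612 tRNA genes. Of these, 95 (34.4%) had a pooled summit and 17 (6.16%) one of the 1000 highest, against 84 of 336 (25%) and 10 (2.98%) on the autosomes. Of tRNA regions, 15 of 84 on X (17.9%) and 9 of 81 on autosomes (11.1%) were among the 1000 highest. The medians were 17.6 and 17.5. Over all regions of the list the share among the 1000 highest was 3.29% on X and 3.34% on autosomes. The replicates differed in this contrast. Matched tRNA regions were among the 1000 highest of replicate 1 for 9 of 84 on X (10.7%) and 2 of 81 on autosomes (2.47%). In replicate 2 they were so for 11 of 84 (13.1%) and 11 of 81 (13.6%). The higher share on X was thus seen in replicate 1 and not in replicate 2.

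The snoRNA genes are single-copy in sequence, all 346 of them. The gene with the highest signal was Y53F4B.47 on chromosome II, which had a region on each side, both matched among the 1000 highest of both replicates. The downstream region (chrII:15025566-15025915) was a consensus peak with a signal of 45.5 in the pooled list, 22.01 in replicate 1 (rank 195) and 20.1 in replicate 2 (rank 211). The upstream region (chrII:15025794-15026143) had signals of 38.2, 19.5 and 17.4. These regions lay 373 bp and 145 bp from the nearest protein-coding start, that of cmtr-1, so a small RNA gene and a promoter cannot be told apart as their position.

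C04G6.12, in an intron on chromosome II, had a summit inside the gene (chrII:5105053-5105402). Its signal was 39.1 in the pooled list, 23.2 in replicate 1 (rank 141) and 16.5 in replicate 2 (rank 907). ZK994.7, in an intron on chromosome V, had a summit 3 bp from the gene and 5759 bp from the nearest protein-coding start. Its signal was 36.6 in the pooled list, 13.0 in replicate 1 (rank 5381) and 22.3 in replicate 2 (rank 105). The first was high in both replicates, and the second in 1 of them.

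The remaining snoRNA regions of highest signal were at Y43F8C.22 (36.5), C41C4.11 (35.4), F21F12.3 (33.0), K11D9.10 (32.8), Y37E3.20 (32.2) and Y92C3B.4 (32.02). None of these held a repeated word. C41C4.11 had its summit 13 bp from the start of chst-1, and Y37E3.20 had its summit 189 bp from that of pcyt-2.1. F21F12.3 (in an intron, nearest start that of kin-1) ranked 1716 in replicate 1 and 791 in replicate 2, K11D9.10 ranked 312 and 7303, and Y92C3B.4 (in an intron, nearest start that of uaf-1) ranked 916 and 1593. Ranks of the same region thus differed widely between replicates at some genes and little at others.

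By sequence class, snoRNA genes with CTGA near the 3′ end had the larger share of high regions. Of 34 regions nearest to such a gene, 10 (29.4%) were among the 1000 highest, with a median of 18.1. Of 15 regions at genes with ACA before the last 3 bases, the letters of the H/ACA class that guides pseudouridine formation, 3 (20%) were, with a median of 19.3. Of 80 regions at genes with neither, 7 (8.75%) were, with a median of 16.98. By gene, 10 of 77 genes with CTGA (13.0%), 3 of 51 with ACA (5.88%) and 7 of 218 with neither (3.21%) had one of the 1000 highest. By region, the 10 high CTGA regions include both at Y53F4B.47. They also include that at smy-2, which the annotation calls a snoRNA though its name is that of the SmY genes described below. Several of the 10 also sat near promoters. The nearest protein-coding start was 13 to 373 bp away at Y53F4B.47 (both regions), C41C4.11, Y37E3.20, smy-2 and F55A11.10. At C04G6.12, ZK994.7, C16D9.10 and T19B4.8 it was 594 to 5759 bp away. Starts were no more than 500 bp away for 8 of the 34 CTGA regions, 7 of the 15 with ACA and 21 of the 80 with neither. The class difference was not separated from distance to promoters. Few letters define these classes, and chance matches cannot be told apart from true boxes.

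Regions were also split by whether the gene lies in an intron. Of 57 regions at snoRNA genes in introns of protein-coding genes, 10 (17.5%) were among the 1000 highest, and of 50 at snoRNA genes outside protein-coding genes 8 (16%) were. At tRNA genes the counts were 10 of 79 (12.7%) in introns and 14 of 81 (17.3%) outside, with medians of 16.2 and 18.1. The medians at snoRNA genes were 17.6 and 17.98. All 3 of the snRNA regions among the 1000 highest were at genes in introns. Regions at genes that overlap an exon were lower, with 2 of 30 (6.67%) among the highest and a median of 15.5.

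At snRNA genes the highest region lay over sup-6 (chrII:12944709-12945058), with its summit inside the gene and 3374 bp from the nearest protein-coding start. Its signal was 49.5 in the pooled list (rank 41), 15.3 in replicate 1 (rank 2305) and 24.6 in replicate 2 (rank 69), and it was a consensus peak. At sup-39 (chrII:6968181-6968530) the signal was 35.5 in the pooled list (rank 176) and 26.3 in replicate 1 (rank 64), and replicate 2 had no matched region. A second region, with its summit inside sup-39, had 21.998 in the pooled list and matched the same replicate 1 region, with 11.6 in replicate 2. At sup-6 replicate 2 was the higher of the replicates by rank, and at sup-39 replicate 1 was.

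Of the 31-base words in these regions, 22.2% at sup-6 and 30.6% at sup-39 were repeated. The other U1 genes were 85.5% to 97.6% identical to sup-6, and of the 13 U1 genes 3 had a pooled summit within 300 bp. The third highest snRNA region was at R07E5.16, whose gene holds the U6 letters ACAGAGA, with a pooled signal of 34.5 (rank 211), 13.1 in replicate 1 and 18.4 in replicate 2. It is 1 of 14 identical copies. U6 forms part of the catalytic centre of the spliceosome, and in other organisms RNA polymerase III transcribes it.

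The snRNA groups differed in median, with few regions in each. Genes grouped as U6 had a summit in 6 of 22 cases, with a median signal of 21.2 over 6 regions. Genes grouped as U5 had one in 4 of 12 cases (median 18.5 over 5 regions), and genes grouped as U2 in 3 of 19 (median 13.8 over 3). The U6 letters were in 21 of the 22, and the U5 loop letters GCCTTTTAC in 11 of the 12. The U2 letters GTAGTA were in 18 of the 19 and also in 42 other small RNA genes. SmY genes, whose RNAs are found with the trans-splicing machinery, had a summit in 4 of 10 (median 14.5 over 4). The annotation calls smy-2 a snoRNA, so it is not among these 10, and its region had a signal of 30.8 (rank 440). The next regions by signal were at F38E11.10 (U5 group, 23.9), W05B2.8 (U6 group, 23.1), C52E4.8 (23.0), C28A5.7 (U6 group, 22.8), M163.13 (21.8) and Y69A2AR.36 (U5 group, 20.2), all below rank 1000.

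Counted over all ranks, the replicates held the regions at small RNA genes more often together than they held other regions. A replicate region with its summit within 200 bp was found in both lists for 104 of the 322 (32.3%), where the background was 25.1%. It was found in replicate 1 for 60.2% (background 59.6%) and in replicate 2 for 62.1% (background 54.8%), and in neither list for 32 regions. The share found in both lists went with pooled rank. Among the 1000 highest it was 89.4% at small RNA genes (42 of 47) and 87.1% over all regions. At small RNA genes below rank 1000 it was 22.5% (62 of 275). The difference from the background over all ranks was not separated from rank. Matched regions were among the 1000 highest of replicate 1 for 27 (8.39%, background 3.31%) and of replicate 2 for 40 (12.4%, background 3.24%). They were so in both for 7 (2.17%, background 0.29%), namely those at M02F4.t1, F14B6.t1, F46G11.t2, F47G6.t1, C04G6.12 and both at Y53F4B.47. Among the 160 regions without repeated words it was 1 (0.625%), that at C04G6.12.

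Across the 104 regions matched in both lists, Spearman's rho between replicate signals was 0.34, and across all 7518 such pooled regions it was 0.08. Split by pooled rank, rho at small RNA genes was -0.39 for regions among the 1000 highest and 0.14 for those below. The value of 0.34 was therefore above that of either part and does not measure agreement within them. Over all of the 1000 highest pooled regions, where matched in both lists, rho was also negative, at -0.32. These are descriptions across regions, which share libraries and the matching rule. By biotype the shares found in both lists were 33.3% for tRNA, 32.6% for snoRNA and 25% for snRNA genes.

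**Figure D5:**
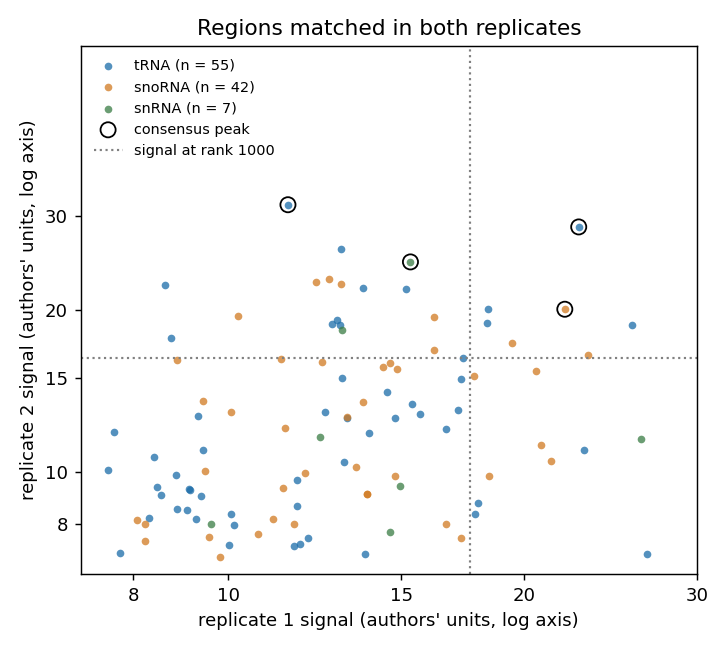
Signal in replicate 2 (y axis) against replicate 1 (x axis), both in the authors' units on log scales, for the 104 regions matched in both lists, coloured by biotype. Dotted lines mark the signal at rank 1000 of each list (17.6 and 16.3), and circles mark the 4 consensus peaks, of which 2 lie to the upper right of both lines.

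Each replicate list was also searched on its own. Replicate 1 had 274 nuclear regions within 300 bp of a small RNA gene, with a median of 11.1 and 25 among its 1000 highest (9.12%). Replicate 2 had 333, with a median of 9.99 and 40 among its 1000 highest (12.0%). The median was 1.12 times the list median in replicate 1 and 1.09 times in replicate 2, as it was 1.09 times in the pooled list. At tRNA genes 7.28% of replicate 1 regions and 13.1% of replicate 2 regions were among the 1000 highest, and at snoRNA genes 10.9% and 10.7%. By this share the replicates were closer at snoRNA genes. By the ratio to the list median they were closer at tRNA genes (1.094 and 1.099, against 1.144 and 1.084 at snoRNA genes).

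The share of summits with the AAGTT word differed by class of gene. On either strand it lay within 50 bp of 105 of 322 summits (32.6%), against 38.4% of all pooled summits. The share was 30.3% at tRNA genes, 32.6% at snoRNA genes and 46.4% (13 of 28) at snRNA genes. Among the 1000 highest it was at 25.5% of these regions against 36.6% of all. Base composition differed too: the median GC content within 50 bp of the summit was 38.6%, against 31.7% over all regions, and 46.5% where the summit was inside a gene. The part of base composition in the word counts was not tested. The strict B box core GTTCGANTC lay within 300 bp of 46.1% of tRNA region summits, 2.33% of snoRNA region summits and 1.61% of all pooled summits, on either strand. Every tRNA region lies within 300 bp of a tRNA gene by rule, and 46.7% of all 612 tRNA genes hold this core. The share at tRNA regions therefore follows from the rule and is no result about the regions.

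The spliced-leader genes and other small RNA genes are given for comparison only. Of 30 sls- genes 9 had a pooled summit within 300 bp, and of the 12 regions there 5 were among the 1000 highest (41.7%), with a highest signal of 87.4 (rank 6). The RNase P RNA gene rpr-1 had a region with a signal of 18.8 (rank 8185). The RNase MRP RNA gene mrpr-1, the Y RNA gene yrn-1 and the 20 nuclear rRNA genes had 0 regions within 300 bp.

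Genes for the proteins that make or bind these RNAs were counted by summits near their starts. Of 30 genes listed, 28 were found in the annotation under the names used. Of these, 0 had one of the 1000 highest summits within 500 bp of a start (background 2.15%), and 15 (53.6%) had any pooled summit there (background 34.2%). They included the 5 snoRNP protein genes that were found of 7 listed, 4 of 8 genes of RNA polymerase III and its factors, 5 of 10 snRNP genes and 1 of 5 SNAPc genes. The highest were snr-2, an Sm core protein gene (signal 27.3, rank 1033), nol-56 (26.4, rank 1314) and nol-58 (26.1, rank 1412), which encode core proteins of methylation-guiding snoRNPs, fib-1, the methyltransferase fibrillarin (21.8, rank 4121), and tftc-1, a subunit of the RNA polymerase III factor TFIIIC (22.3, rank 3562). The nol-56 region was the same as that at the snoRNA gene K07C5.11, so it counts under both.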

How the data were processed

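The data were deposited ChIP-seq region lists on the build ce11 for 2 biological replicates of 1 group. Per the deposited README texts, the authors listed 30000 regions for each replicate and for both together with a control library, to be used in IDR, and derived the consensus from these lists. Signal is the authors' value per region, as deposited in the narrowPeak files. The sources used here do not name the aligner, the peak caller, the IDR threshold or the handling of reads with several matches. The lists on ce10 were not used here. No read counts were at hand, so the depth was unknown and no counting interval could be given.

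Summits were set against gene annotation of Ensembl release 115 (WBcel235), with tRNA amino acids, gene names and sequences from RefSeq of the same build, matched by gene ID for all 1057 genes. Of the tRNA genes, 607 had an amino acid. The nearest gene gave a region its biotype. Regions were ranked by signal within a list, the 23 mitochondrial regions of replicate 1 left out. A replicate region matched when its summit lay within 200 bp, and 2 pooled regions can match the same one. A 31-base word counted as repeated when the nuclear genome holds it at 2 or more places. The snRNA groups were made by the letters named and by identity of at least 80%, since 32 snRNA genes share names in Ensembl. With 1 group and ranked lists, no test was made, and all comparisons are counts, shares and medians beside those of the whole list.

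The members, gene lists and words were chosen with earlier results of these data known. Genes were named by a rule: consensus peaks, the 10 regions of highest signal per biotype, regions among the 1000 highest of both replicates, and regions at the 300 bp limit. The genes whose sequences are printed, the machinery genes of highest signal and the comparison genes were picked with their values in view. Counting steps were tested on simulated data. Python 3.11.15, pandas 2.3.3, numpy 2.4.6, Biopython 1.88 and scipy 1.17.1 were used.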

Additional observations from a re-analysis of the deposited data

Results flagged for a closer look

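Mitochondrial DNA had 23 regions in the replicate 1 list, of which 16 had a summit within 300 bp of one of the 22 mitochondrial tRNA genes. These regions lie outside the nuclear comparisons, and the replicate 2 and pooled lists held 0 mitochondrial regions. Their signals ran from 23.8 to 1061, against 62.6 for the highest nuclear region of the same list. The sources used here do not say if such regions were taken out of the other lists.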

How the results depend on the processing

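Of 40 alternative values, 30 were classed as the same as those reported, including all for limits of 200 bp or 500 bp, for overlap and for 1 summit per 200 bp. The class is wide, and the counts followed the limit. There were 269 regions at 200 bp, 436 at 500 bp and 253 by overlap of region and gene, against 322. Genes with a region numbered 269, 430 and 254, against 329. The share among the 1000 highest changed less, at 15.2%, 12.6% and 16.2%, against 14.6%. With 1 replicate left out, the count among the 1000 highest was 25 to 40, lowest without replicate 2, and the median signal was 9.99 to 11.1, on the scales of the replicate lists. Taking the 5000 highest regions gave 102, and the consensus gave 4, which follows from the number of regions taken. Regions among the highest of both replicates numbered 3 for the 500 highest and 25 for the 5000 highest. Without regions holding repeated words, an alternative chosen after seeing the data, 160 regions remained, with 20 among the 1000 highest and 1 among the highest of both replicates (C04G6.12), where 7 were counted over all regions. For the counts without replicate 2 or without repeated words, the cause was not tested beyond the smaller number of regions. With no read counts at hand, no limit from depth was computed. No paired analysis was possible because all samples form a single group.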
